A study of Mus musculus with 14 samples.

Results

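Distal regions that carried both H3K4me1 and H3K4me2, the mono- and dimethylated forms of lysine 4 of histone H3, were examined in mouse embryonic stem cells. They were taken from the list of enriched regions (peaks) of the untreated H3K4me1 library. A region was a peak shorter than 10000 bp that lay more than 1 kb from both ends of every protein-coding gene and overlapped a peak of untreated H3K4me2. It overlapped no untreated peak of H3K4me3, the trimethylated form, and none of Mll1. The regions were thus chosen by peak calls in the untreated libraries. The rule chose 27539 of the 119739 untreated H3K4me1 peaks. Of all peaks, 117877 were short enough, 92941 of these were distal, 53351 of these had H3K4me2, 27857 of these had no H3K4me3, and 27539 of these had no Mll1. Presence of each mark in untreated cells was therefore fixed by the choice, and the untreated values below are a description.

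The cells were blastocyst-derived embryonic stem cells of strain C57BL/6J with the genotype Mll1fl/fl; Cre-ER TM, so that all groups carried floxed Mll1 alleles and the inducible recombinase. They were grown on Matrigel without feeders, with LIF, in medium that held 15% serum replacement (KSR) and 5% serum. One group was untreated, one received MM401 (MM-401, an inhibitor of the interaction of MLL1 with WDR5) at 100 µM, and one received 4-hydroxytamoxifen (4-OHT), which activates Cre-ER to delete floxed Mll1, at 5 µM, each treatment for 9 days over 3 passages. The 3 marks were mapped by chromatin immunoprecipitation and sequencing in all 3 conditions, and Mll1 in untreated cells only, so the lists hold no check of the deletion. No vehicle control and no 4-OHT group without the recombinase were among the samples used here.

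Each group is 1 library. A test between conditions could therefore not be made, and p-values are absent. Whether the libraries came from separate cultures is not stated. Intervals are exact 95% intervals and cover counting error only. The treatments share the untreated libraries, so their values are set side by side and were not compared with each other.

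Enhancers are stretches of regulatory DNA that act on genes from a distance. H3K4me1 is the form of H3K4 methylation typical of enhancers and is written there mainly by the methyltransferases Mll3 and Mll4, whereas H3K4me3 is typical of active gene starts and is written mainly by the Set1 and Mll1/Mll2 complexes. H3K4me2 lies at both kinds of element. Mll1, also called Kmt2a, works in a complex with WDR5 and is needed at a restricted set of genes.

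The sequences of the regions themselves were not read, since no genome was used here. RefSeq promoter windows (GRCm38.p6, 250 bases before to 50 after the start of a transcript) could be read where a window lay wholly inside a region. There were 606 windows of long noncoding RNAs, from 556 genes, in 551 regions. The next 3 windows are shown because the first 2 lie in regions among the 10 with the most H3K4me1 tags and the last in a region with H3K4me3 of 9.77 tags per M (1000000) filtered tags after 4-OHT; CpG dinucleotides are in capitals, 5′ to 3′.
Gm51658, chr9:103132921-103133220, minus strand: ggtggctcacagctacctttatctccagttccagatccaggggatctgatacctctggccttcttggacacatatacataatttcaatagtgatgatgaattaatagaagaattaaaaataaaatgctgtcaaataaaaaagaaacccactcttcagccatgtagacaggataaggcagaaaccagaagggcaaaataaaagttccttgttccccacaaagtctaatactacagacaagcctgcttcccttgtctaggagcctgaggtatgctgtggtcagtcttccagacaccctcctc
Gm33176, chr1:35941763-35942062, plus strand: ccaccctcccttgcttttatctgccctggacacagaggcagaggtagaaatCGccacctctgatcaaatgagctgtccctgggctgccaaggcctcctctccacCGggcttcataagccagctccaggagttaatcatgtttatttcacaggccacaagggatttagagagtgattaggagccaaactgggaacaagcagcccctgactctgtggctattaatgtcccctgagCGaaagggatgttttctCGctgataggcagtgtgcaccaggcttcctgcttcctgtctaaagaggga
4930512J16Rik, chr6:89285676-89285975, minus strand: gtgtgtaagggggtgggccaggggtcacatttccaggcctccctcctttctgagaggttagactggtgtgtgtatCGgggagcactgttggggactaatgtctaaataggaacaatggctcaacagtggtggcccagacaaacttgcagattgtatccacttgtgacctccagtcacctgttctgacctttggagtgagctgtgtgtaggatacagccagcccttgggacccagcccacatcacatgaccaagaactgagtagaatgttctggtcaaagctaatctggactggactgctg

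Gm51658 starts inside the region near Rab6b and has 0 CpG. Gm33176, near Hs6st1, has 4, and 4930512J16Rik, near Plxna1, has 1. The next 2 windows contrast a region near the pluripotency gene Tbx3 that had no H3K4me3 when untreated with a distal region outside the set that had 91.3 H3K4me3 tags per M.
Tbx3os2, chr5:119691169-119691468, minus strand: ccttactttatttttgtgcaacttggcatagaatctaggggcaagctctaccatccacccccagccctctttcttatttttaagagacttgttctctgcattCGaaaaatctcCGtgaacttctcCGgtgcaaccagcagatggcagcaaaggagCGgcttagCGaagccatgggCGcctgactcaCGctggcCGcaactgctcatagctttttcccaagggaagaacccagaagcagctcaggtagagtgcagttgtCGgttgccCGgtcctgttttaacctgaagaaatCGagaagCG
D030074P21Rik, chr6:49213211-49213510, minus strand: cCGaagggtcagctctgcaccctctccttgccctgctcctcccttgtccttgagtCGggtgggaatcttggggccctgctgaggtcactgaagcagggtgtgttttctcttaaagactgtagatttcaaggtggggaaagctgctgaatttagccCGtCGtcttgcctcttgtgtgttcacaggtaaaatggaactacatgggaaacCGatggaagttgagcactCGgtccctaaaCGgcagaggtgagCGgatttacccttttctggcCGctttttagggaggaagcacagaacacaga

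Tbx3os2 has 12 CpG and D030074P21Rik, which belongs to the contrast region near Igf2bp3, has 9. A last window, inside a region 297 kb from Sox2, is shown for its match to the octamer bound by Oct4 (ATGCAAAT, here on the opposite strand); capitals mark that match.
Gm35255, chr3:34949977-34950276, plus strand: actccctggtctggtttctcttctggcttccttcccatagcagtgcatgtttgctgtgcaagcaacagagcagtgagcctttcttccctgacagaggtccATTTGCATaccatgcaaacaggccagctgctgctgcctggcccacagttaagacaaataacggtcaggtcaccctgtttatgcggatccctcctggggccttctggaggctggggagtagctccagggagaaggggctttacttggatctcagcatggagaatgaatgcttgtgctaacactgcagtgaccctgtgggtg

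Over all 606 windows the median number of CpG was 4, and 8.09% of windows had 10 or more. In distal regions with H3K4me3 the median was 7 and 29.5% of 1439 windows had 10 or more, and in distal H3K4me1 peaks without H3K4me2 the median was 4 and 2.49% of 361 windows did. The share over all 11588 windows of long noncoding RNAs outside chromosome 18 was 19.1%. Median GC content was 50.3% in the regions, 51.7% with H3K4me3 and 49.3% without H3K4me2. CpG-rich starts were thus fewer in the regions than in distal regions with H3K4me3, and the windows cover only regions that hold an annotated start.

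The windows were also searched on both strands for 8 motifs. The GC box CCGCCC was in 9.24% of the region windows, 25.6% of those with H3K4me3 and 16.3% of all windows of long noncoding RNAs. The Klf motif CCACACCC was in 6.93%, 4.45% and 3.44%, and the AP-1 motif TGACTCA in 8.91%, 6.32% and 6.20%. The octamer ATGCAAAT was in 2.31%, 2.15% and 1.87%, the Sox2 motif CATTGTT in 4.95%, 4.73% and 4.75%, and the Esrrb motif TCAAGGTCA in 0.660%, 0.278% and 0.587%. The E-box CAGGTG was in 23.4%, 23.1% and 21.1%, and the E-box CACGTG in 6.44%, 7.02% and 5.89%. In windows of distal H3K4me1 peaks without H3K4me2, the Klf motif was in 8.31%, the AP-1 motif in 9.97% and the octamer in 3.88%. The E-box CAGGTG was in 26.9% there. The GC box was slightly more frequent there than in the region windows, but less than in those with H3K4me3. The Sox2 motif (4.43%), the Esrrb motif (0.277%) and the E-box CACGTG (3.32%) were less frequent there than in the region windows. The Klf, AP-1 and GC box shares were thus not particular to the regions. A match is a description of these letters only.

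Filtered tags per mark library ranged from 12.9 M to 61.8 M. The MM-401 libraries held 60.3% (H3K4me1), 49.5% (H3K4me2) and 51.2% (H3K4me3) of the untreated tags, and the 4-OHT libraries 167%, 121% and 105%. The MM-401 libraries were processed in another folder and had tags of 57 to 60 bp against 50 to 51 bp, so this processing group and MM-401 cannot be told apart. The Mll1 list had 4004 peaks, and 0.285% of its tags lay in peaks, so regions without an Mll1 peak are not shown to lack Mll1. As a check of the cell type, untreated H3K4me3 peaks lay at the ends of 14 of 14 core and 14 of 16 naive pluripotency genes. They also lay at 7 of 12 blood and endothelial and 6 of 10 fibroblast genes, and H3K4me3 at a gene end does not show transcription.

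The regions were short and of moderate strength. Their median width was 2083 bp (5th to 95th percentile 1006 to 5091 bp), and they held a median of 148 H3K4me1 tags (46.0 to 488, highest 1403), or 69.1 tags per kb. Distal H3K4me1 peaks without H3K4me2 held a median of 64.0 tags and regions that met the rule except for an Mll1 peak 312. The median H3K4me2 level was 1.92 tags per M, against 6.01 in distal regions with H3K4me3, and H3K4me2 peaks covered a median of 66.6% of a region. The summits of the marks lay a median of 209 bp apart. Together the regions covered 66.7 Mb and held 14.2% of all filtered H3K4me1 tags.

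Of the regions, 53.8% lay inside the body of a protein-coding gene. The nearest gene end was 1 to 5 kb away for 13.6%, 5 to 50 kb for 57.3% and 50 to 500 kb for 28.0%, and 314 regions lay farther. The median distance was 23264 bp. They were nearest to 9713 genes, of which 4085 had 1 region and 352 had 10 or more. The X chromosome held 401 regions (1.46%). A region is named here by the gene with the nearest end, which need not be the gene it acts on. Coordinates are those of mm10, and where 3 levels of a mark follow each other they are the untreated, MM-401 and 4-OHT values in this order.

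The edges of the rule fell inside a continuous range. The widest regions were near Jarid2 (9976 bp, 1024 tags), Gdpd5 (9965 bp, 912 tags) and Rab6b (9896 bp, 1403 tags). Just outside lay peaks near Ror2 (10003 bp, 790 tags), Gab1 (10042 bp, 821 tags) and E2f3 (10046 bp, 595 tags). The closest to a gene end were near Ptgdr2 (1005 bp), Msh5 (1006 bp) and Ren1 (1009 bp), and just outside lay Kcnk1 (1000 bp), Hoxd13 (999 bp) and Tulp3 (998 bp). In all, 115 peaks missed the rule by width alone and 1993 by distance alone.

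The first question was which marks these regions still carried after each treatment. After 4-OHT nearly all kept H3K4me1 and most kept H3K4me2, and a minority had an H3K4me3 peak. After MM-401 most had no H3K4me2 peak and a smaller share had no H3K4me1 peak, in libraries with fewer tags. H3K4me1 was absent (no peak of that library overlapping the region by 1 bp) in 26.1% after MM-401 (25.6 to 26.7%) and in 4.46% after 4-OHT (4.21 to 4.71%, 1227 regions). Over all untreated H3K4me1 peaks these shares were 34.4% and 9.35%. H3K4me2 was absent in 58.0% after MM-401 (57.4 to 58.6%) and in 12.2% after 4-OHT (11.8 to 12.6%, 3351 regions), against 25.8% and 4.59% of all H3K4me1 peaks that had H3K4me2. H3K4me3 was acquired by 124 regions after MM-401 (0.450%) and by 3748 after 4-OHT (13.6%, 13.2 to 14.0%), against 0.250% and 6.20% of all H3K4me1 peaks that had none. The rule and these shares use the same untreated calls, so by the rule H3K4me1 and H3K4me2 peaks could only go missing and H3K4me3 peaks only appear, and nothing is read from the distance to the whole list.

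The MM-401 shares moved most with list length. With lists cut to equal length by score, H3K4me1 was absent in 10.1% of the regions after MM-401 (16.3% of all peaks) and H3K4me2 in 22.4% (8.99%), and H3K4me3 was acquired by 5.51% (2.68%). For 4-OHT, H3K4me2 was absent in 14.3% with equal lists, in 22.7% with peaks of score 100 or more, in 23.7% with a cover of at least 50% of the region, and in 6.21% of regions with at least 50 untreated H3K4me2 tags. H3K4me1 was absent after 4-OHT in 2.64% of regions with at least 50 tags. H3K4me3 acquired after MM-401 was 0.114% with scores of at least 100 and 0.0944% with the 50% cover.

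**Figure D1:**
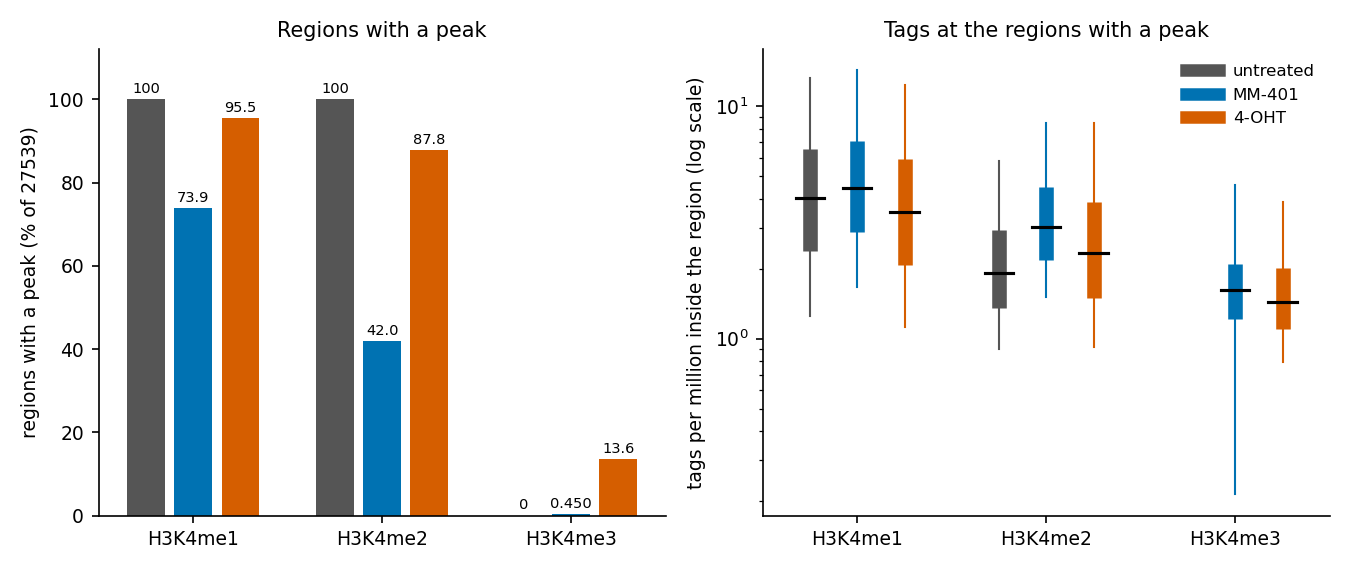
Share of the 27539 regions with a peak of each mark in each condition (left, bars, percent) and tags per M inside the regions that had a peak (right, logarithmic axis; the line is the median, the thick bar the 25th to 75th and the thin bar the 5th to 95th percentile). Untreated shares are 100% or 0% by the rule; H3K4me3 was present in 13.6% after 4-OHT and in 0.450% after MM-401.

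Absence followed the strength of the untreated peak. With the regions in 10 classes of untreated H3K4me1 tags, H3K4me1 was absent after MM-401 in 81.8% of the weakest class (21 to 57 tags) and in 0.0729% of the strongest (375 to 1403 tags). After 4-OHT the share was 26.3% in the weakest class, 0.359% in the seventh (178 to 216 tags) and 2.48% in the strongest. In classes of untreated H3K4me2 tags, H3K4me2 was absent after MM-401 in 89.6% of the weakest and 7.56% of the strongest class, and after 4-OHT in 42.0% and in 0 of 2726, which allows a share of up to 0.135%. Acquired H3K4me3 went the other way: after 4-OHT its share was 3.44% in the weakest H3K4me2 class and 47.7% in the strongest. Absence was thus mainly seen among weak peaks, also for H3K4me1 after 4-OHT, although the share in the strongest class was above that in the seventh.

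**Figure D2:**
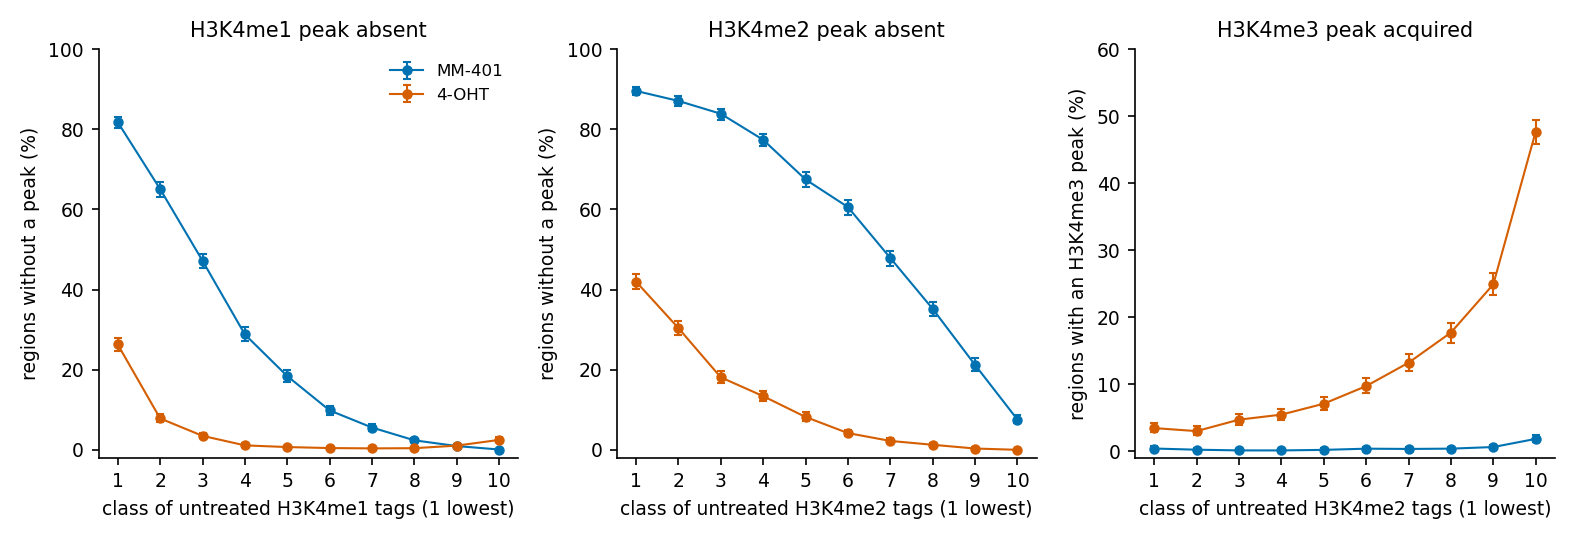
Share of regions (percent) in which H3K4me1 or H3K4me2 had no peak after treatment, or H3K4me3 was acquired, in 10 classes of untreated tags of the named mark; points are classes and bars are exact 95% binomial intervals. Absence of H3K4me2 after 4-OHT falls from 42.0% to 0, while acquired H3K4me3 rises to 47.7%.

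The strength of the untreated marks also differed between the regions and the groups they are set against, so these were compared within classes. In the fifth H3K4me2 class (67 to 77 tags), H3K4me2 was absent after 4-OHT in 8.21% of the regions and in 0.721% of distal regions with H3K4me3, and after MM-401 in 67.5% and 46.8%. In the eighth class (107 to 134 tags) the MM-401 shares were 35.2% and 22.4%. The classes match tags inside the region only, and H3K4me2 peaks were wider in distal regions with H3K4me3 (median 1979 against 1318 bp). Differences between these groups were not tested. Among distal regions that met the rule except for an Mll1 peak (318), H3K4me2 was absent in 3.77% after 4-OHT and 33.6% after MM-401, and 28.0% acquired H3K4me3 after 4-OHT. In the strongest H3K4me2 class, 56.8% of those with Mll1 (47.0 to 66.1%, n = 111) and 47.7% of those without (45.8 to 49.5%) acquired H3K4me3. These intervals cover counting error only and overlap, and the difference was not tested.

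Levels were compared where a mark had a peak in both conditions, as tags per M inside the region. The median H3K4me2 level after 4-OHT was 2.33 against 2.10 in untreated cells (24188 regions), and the median log2 ratio was 0.14, against 0.00 over all H3K4me1 peaks with H3K4me2. The level was at least 2-fold higher in 8.18% of the regions (1978) and in 3.33% of all peaks, and at least 2-fold lower in 2.14% and 0.957%. The median ratio was 0.01 when tags were scaled to the tags in peaks, where that of all peaks was -0.12. Only regions with H3K4me2 in both lists enter, and all peaks in this comparison had a higher untreated median (5.19 tags per M). In the weakest H3K4me2 class 42.0% had no peak after 4-OHT, and the median ratio of the others was 0.28. It was 0.05 in the seventh class and 0.26 in the strongest. Nothing is therefore read from the distance to the whole list. The median ratio of the regions was 0.23 with scores of at least 100 and 0.05 with whole peaks. H3K4me1 went the other way: its median was 3.52 after 4-OHT against 4.15 (26312 regions), with a log2 ratio of -0.20, against -0.15 over all peaks. It was at least 2-fold lower in 2.53% and at least 2-fold higher in 0.175% of the regions, against 2.00% and 0.529% of all peaks.

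After MM-401 the median log2 ratio of H3K4me1 was -0.10 (4.46 against 5.02 tags per M, 20340 regions; all peaks -0.02), and that of H3K4me2 was 0.12 (3.03 against 2.90, 11565 regions; all peaks 0.09). H3K4me1 was at least 2-fold lower in 4.41% (all peaks 3.17%) and 2-fold higher in 0.192% (0.380%), and H3K4me2 at least 2-fold higher in 5.74% (1.43%) and lower in 3.39% (2.25%). Only regions with a peak called in the shallower library enter these medians. The direction was not stable: H3K4me1 gave 0.03 with tags scaled to the tags in peaks (higher in 53.0% in place of 39.6% of regions) and 0.10 with whole peaks, and H3K4me2 gave -0.07 with lists of equal length and 0.26 with scores of at least 100. H3K4me1 gave -0.04 with such scores.

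The 10 regions with the most H3K4me1 tags kept H3K4me1 in both treated conditions. The region with the most tags, near Rab6b (chr9:103132306-103142201, a gene of a small GTPase of Golgi traffic), had H3K4me1 at 38.0 untreated (36.1 to 40.1), 38.9 after MM-401 (36.5 to 41.4) and 31.5 tags per M after 4-OHT (30.1 to 33.0). Its H3K4me2 was 19.0, 19.6 and 21.9, and H3K4me3 was 3.33 after 4-OHT only. Over these 10 regions H3K4me1 was 29.8 to 41.0 with MM-401 and 27.4 to 37.3 tags per M with 4-OHT. The region near Hs6st1, an enzyme of heparan sulfate synthesis, had 33.8, 37.0 and 33.0, and that near Pde9a, a cyclic GMP phosphodiesterase, 34.1, 33.8 and 32.5. The region near Fam43a had H3K4me2 of 13.9, 24.7 and 29.3 and H3K4me3 of 14.1 after 4-OHT, with none untreated or after MM-401. The region near Zfp992 had H3K4me2 of 2.32, none and 28.0; it lies in a family of similar zinc finger genes, where shared reads cannot be told apart.

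A treated peak can extend beyond a region, and its tags were spread evenly over its width, so a peak that merges with one at a gene end brings in tags from there. Of the regions with H3K4me2 in both conditions, 0.868% had a peak that came within 1 kb of a gene end after 4-OHT or in untreated cells, and the median log2 ratio without them was 0.13. The extremes were different. All 10 regions with the largest H3K4me2 rise after 4-OHT lay under such a peak, of 8313 to 32376 bp. The region near Nrf1, a regulator of nuclear genes for mitochondria, had H3K4me2 of 2.82 untreated (2.32 to 3.39), 2.22 after MM-401 and 25.2 after 4-OHT (24.3 to 26.0) under a peak of 19136 bp. The region near Etv1, an ETS transcription factor, had 2.65, 2.76 and 16.5. These values describe broad H3K4me2 around gene ends that reached the regions.

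The changes were smaller away from gene ends, under peaks shorter than 10 kb that covered at least 50% of the region in both lists, the untreated one with at least 100 tags (these regions were chosen after their values were seen). The largest H3K4me2 rises after 4-OHT included 2 regions near Jarid2, a subunit of Polycomb complex PRC2, at 3.79 untreated, 5.20 after MM-401 and 11.3 after 4-OHT, and at 2.85, none and 8.19. A region near Chka, a choline kinase, had 7.71, 13.9 and 21.6. The largest H3K4me2 fall after 4-OHT among these was near Itgb4, an integrin, at 5.29, 0.441 and 0.991. H3K4me1 was 8.98 untreated and 2.38 after 4-OHT in a region near Igsf21 (8.86 after MM-401) and 6.10 and 1.64 near Foxf1, a forkhead factor (3.74 after MM-401). Near Scaper it was 8.79 untreated, 2.88 after MM-401 and 7.48 after 4-OHT.

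The largest falls by the rule were partly contacts at an edge. The 10 largest H3K4me1 falls after MM-401 were regions of which the treated peak covered 0.166 to 10.6%, and the 10 largest H3K4me2 falls 0.204 to 17.1%. After 4-OHT the covers were 8.01 to 43.2% for H3K4me1 and 9.58 to 75.3% for H3K4me2, so these were peaks over part of the region. Near Sik1, a salt-inducible kinase, H3K4me1 was 9.87, 10.7 and 1.64 in untreated, MM-401 and 4-OHT cells, and near Rptor, a component of mTORC1, 16.6, 14.3 and 2.59. Near Ajap1 H3K4me2 was 5.72, 3.18 and 0.782 (0.553 to 1.07).

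The H3K4me2 peaks of highest score that were absent after MM-401 also lay mostly at the border of gene ends: 8 of the 10 untreated peaks came within 1 kb of one. The region near Kmt2a itself (chr9:44875091-44878224, 3.13 kb from a gene end) had H3K4me2 of 8.87 untreated, none after MM-401 and 18.3 after 4-OHT, and its H3K4me1 was 5.88, 8.42 and 6.88. Whether it lies in the floxed part is not given in the sources used here. Near Crebbp, an acetyltransferase that acts at enhancers, H3K4me2 was 3.70, none and 13.6. H3K4me1 had a peak after MM-401 in both. Among the 10 H3K4me1 peaks of highest score that were absent after MM-401, none had H3K4me2 after MM-401, while all 10 had H3K4me1 after 4-OHT; near Lbx1 H3K4me1 was 9.06, none and 6.83. The 10 named H3K4me2 peaks absent after 4-OHT lay under untreated H3K4me2 peaks wider than the region.

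H3K4me2 was also higher after MM-401 in single regions away from gene ends. Near Itpr1, a calcium channel of the endoplasmic reticulum, H3K4me2 was 2.55 untreated (2.08 to 3.09), 9.48 after MM-401 (8.19 to 10.9) and 7.16 after 4-OHT. Near Fgfr2, a receptor of fibroblast growth factors, it was 4.59, 17.0 and 10.1, and near Slc1a3, a glutamate transporter, 3.25, 10.3 and 8.13. All 3 regions kept H3K4me1, and those near Fgfr2 and Slc1a3 had small H3K4me3 peaks after both treatments.

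The H3K4me3 peaks acquired after 4-OHT were mostly small and newly called. They held a median of 38.0 tags and 1.44 tags per M inside the region, covered a median of 37.4% of it, and 62.5% had a score below 100. Of the 3748 regions, 3689 lay under treated peaks that overlapped no untreated H3K4me3 peak anywhere, and 14 under peaks within 1 kb of a gene end. The rule excludes untreated H3K4me3 peaks from the regions, and the treated peaks had a median width of 958 bp. The count of 3689 thus follows in part from the choice, and untreated signal too weak to be called is not seen in the lists. The share that acquired H3K4me3 was 5.34% with scores of at least 100, 6.81% with lists of equal length (3.45% of all peaks) and 3.61% with a cover of at least 50%. After MM-401, 84 of the 124 regions lay under peaks that overlapped no untreated peak. Regions that acquired H3K4me3 after 4-OHT had more of both marks before treatment than the others, with median H3K4me1 of 6.10 against 3.82 and H3K4me2 of 3.50 against 1.80 tags per M. These levels are sums over a region, and the regions that acquired H3K4me3 were also wider (median 2814 against 2015 bp). The part of width in these differences was not tested. After 4-OHT the median log2 ratio of the regions that acquired H3K4me3 was 0.38 for H3K4me2, against 0.09 in the other regions, and -0.11 against -0.22 for H3K4me1.

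Acquired H3K4me3 after 4-OHT was more frequent inside genes (16.1%, 15.5 to 16.7%) than between them (10.7%, 10.2 to 11.3%). Untreated medians were also higher inside genes, at 154 against 140 H3K4me1 tags and 1.95 against 1.87 H3K4me2 tags per M. The part of this strength in the difference was not tested. Acquired H3K4me3 was 15.3% at 1 to 5 kb from a gene end and 10.6% at 50 to 500 kb. With an Mll1 peak within 10 kb it was 21.9% (19.8 to 24.0%, 1528 regions), and 13.1% without. The former held a median of 172 H3K4me1 tags and the latter 147, and the part of these tags in the difference was not tested. On the X chromosome it was 17.5% (13.9 to 21.5%).

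Of the 10 acquired H3K4me3 peaks with the highest score after 4-OHT, 8 reached a gene end. The region near Ywhaq (chr12:21400581-21410108), which encodes a 14-3-3 protein, had no H3K4me3 untreated or after MM-401 and 31.5 tags per M after 4-OHT (30.4 to 32.5), with H3K4me2 of 31.3, 2.37 and 43.8. Near Klhl42, an adaptor of a ubiquitin ligase, H3K4me3 was 26.6 after MM-401 and 24.1 after 4-OHT, and near Rlim, a ubiquitin ligase of X inactivation, 27.3 and 6.67. Their untreated H3K4me2 peaks also reached the gene end, although the untreated H3K4me3 list had no peak in these regions. The peaks near Tsx (8.78 after 4-OHT) and Gm9595 (21.5) did not reach one, and both regions had wide H3K4me2 peaks before treatment, of 8551 and 7650 bp. Near Irs2, an insulin receptor substrate, H3K4me3 was 10.2 after MM-401 and had no peak after 4-OHT. The strong cases were thus mostly peaks at gene ends, unlike the typical acquired peak.

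H3K4me1 was absent after 4-OHT in some of the strongest regions. Of the 4519 regions with at least 300 untreated H3K4me1 tags, 89 (1.97%) had no H3K4me1 peak after 4-OHT, and 15 had none after MM-401. All 89 had an H3K4me2 peak after 4-OHT, the H3K4me2 level was higher than untreated in all 89 with a median log2 ratio of 1.21, and 39 had H3K4me3. Without the 10 whose H3K4me2 peak reached a gene end, the median was 1.16 and all 79 were higher. In the other strong regions, also without peaks that reached a gene end, it was 0.39. Among regions under 50 tags, by contrast, 549 of 1816 had no H3K4me1 peak after 4-OHT, 47.0% of these had H3K4me2, and the median log2 ratio of H3K4me2 was -0.20.

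These absences came in long stretches. The stretch of the 4-OHT list without an H3K4me1 peak around the 89 regions was 58.2 kb long in the median and held 3436 untreated H3K4me1 tags, and 83 of the 89 lay in a stretch with 3 or more untreated peaks. At Msi2, an RNA-binding protein of stem cells, the stretch was 164 kb and held 12 untreated peaks with 19890 tags. At Jarid2 it was 182 kb, and the 4-OHT lists had H3K4me2 peaks of up to 47405 bp and H3K4me3 peaks of up to 51204 bp in it. The Jarid2 region (chr13:44817345-44827320) had H3K4me1 of 27.8 untreated (26.1 to 29.5), 28.1 after MM-401 and no peak after 4-OHT, H3K4me2 of 11.2, 10.8 and 33.6, and H3K4me3 of 9.55 after 4-OHT only. H3K4me1 peaks of 20 kb or more had a median score of 1632 in the untreated list, 897 after MM-401 and 1319 after 4-OHT, with 4.43%, 11.1% and 8.85% under 200. Peaks of 10 to 20 kb had 2618, 1168 and 2708, with 0.880%, 1.96% and 1.84% under 200. Peaks of 5 to 10 kb had 2015, 894 and 2357, with 0.0974%, 1.21% and 0.140% under 200. Peaks under 5 kb had 217, 139 and 258, with 47.1%, 66.0% and 42.3% under 200. The share of low scores was thus highest in peaks under 5 kb in each of the 3 lists. It was higher in the widest peaks than in those of 5 to 10 kb, and the part of peak calling in the absences was not tested.

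**Figure D3:**
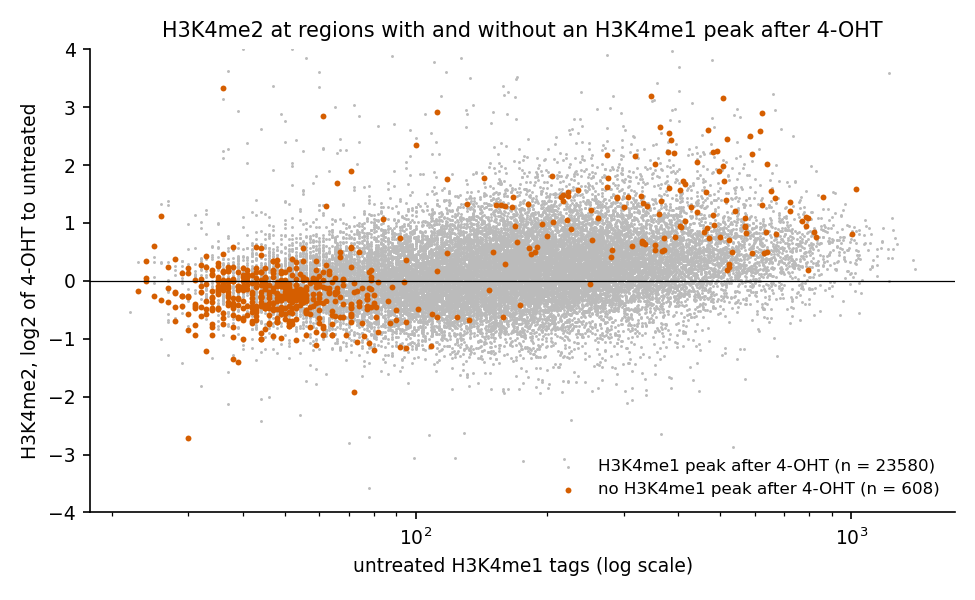
Log2 ratio of H3K4me2 tags per M, 4-OHT to untreated (vertical axis), against untreated H3K4me1 tags (horizontal logarithmic axis) for regions with H3K4me2 in both lists; 23580 regions had an H3K4me1 peak after 4-OHT and 608 had none. Among the latter, the 89 with 300 or more tags all lie above 0, while most weak ones lie below; 41 points outside the plotted range are not shown.

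The gene lists below were chosen with earlier results of these data known, so their counts are descriptions. Core pluripotency genes had 39 regions, near 8 of the 14 genes. Of the 39, 6 had no H3K4me1 after MM-401 and 0 after 4-OHT, 17 and 4 had no H3K4me2, and 2 and 7 acquired H3K4me3. The median log2 ratio of H3K4me2 after 4-OHT was 0.37, and 26 of 35 were higher. Naive pluripotency genes had 73 regions near 12 of 16 genes: 14 and 0 had no H3K4me1, 44 and 4 no H3K4me2, and 1 and 11 acquired H3K4me3, with a ratio of 0.12 and 44 of 69 higher. Genes of the LIF and STAT3 pathway, which maintains the naive state, had 27 regions: 18 and 3 had no H3K4me2, 0 and 3 acquired H3K4me3, and the ratio was 0.53 with 19 of 24 higher. Formative and primed genes had 66 regions: 33 and 4 had no H3K4me2, 0 and 8 acquired H3K4me3, and the ratio was 0.02. All the regions together gave 58.0% and 12.2% without H3K4me2 and a ratio of 0.14. After 4-OHT, H3K4me2 was higher in 60.1% of all the regions with a peak in both lists, and 13.6% of all the regions acquired H3K4me3.

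Regions near lineage genes had H3K4me2 ratios after 4-OHT around or below that of all the regions. For trophectoderm genes it was -0.17 (36 regions, 15 of 34 higher), for primitive endoderm -0.12 (43 regions, 15 of 34), for neuroectoderm 0.07 (45 regions, 20 of 35) and for primitive streak and mesoderm -0.01 (26 regions, 10 of 21). H3K4me2 was absent after 4-OHT in 2, 9, 10 and 5 of these regions, and after MM-401 in 21, 26, 20 and 18. The lists for other cell types gave 6 of 32 (blood and endothelium) and 1 of 12 (fibroblast) without H3K4me2 after 4-OHT, with ratios of 0.04 and 0.25, and housekeeping genes 1 of 8. When tags were scaled to the tags in peaks, all H3K4me2 ratios after 4-OHT were lower by the same amount, which took the median of all the regions from 0.14 to 0.01. The lists also differed in untreated strength. Median untreated H3K4me1 tags were 133 (trophectoderm), 122 (primitive endoderm), 118 (neuroectoderm) and 102 (primitive streak and mesoderm). They were 167 (core), 174 (naive), 161 (formative and primed) and 176 (LIF), and 133 and 176 in the lists for other cell types. Differences between lists, and the part of strength in them, were not tested.

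**Figure D4:**
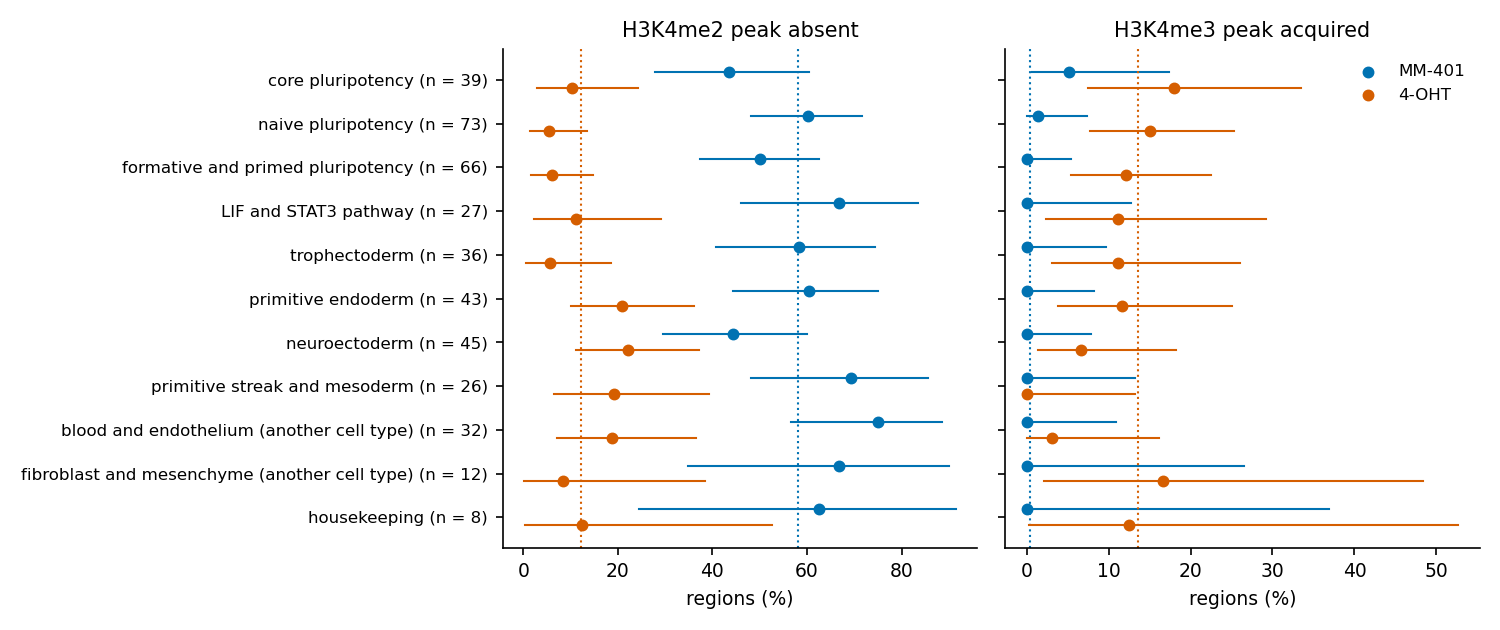
Share of regions (percent) near the genes of each list without an H3K4me2 peak or with an acquired H3K4me3 peak after each treatment; points are shares, bars exact 95% binomial intervals, and dotted lines the shares of all 27539 regions. Most intervals include the dotted line of their treatment, and for core pluripotency genes 7 of 39 regions acquired H3K4me3 after 4-OHT.

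Sox2, a core pluripotency factor, was nearest to 19 regions over both sides of the gene, and all 19 kept H3K4me1 after 4-OHT, while those at 221, 72.6 and 23.5 kb had no H3K4me1 peak after MM-401. The region at 90.8 kb (chr3:34743291-34748446) had H3K4me1 of 15.8 untreated (14.6 to 17.1), 14.9 after MM-401 (13.3 to 16.5) and 15.4 after 4-OHT (14.5 to 16.4), and H3K4me2 of 3.30 (2.76 to 3.91), 5.65 (4.66 to 6.80) and 8.88 (8.08 to 9.74). H3K4me1 was level there while H3K4me2 was highest after 4-OHT. Its neighbours at 84.6 and 81.1 kb had H3K4me2 of 5.67, 6.21 and 7.80 and of 1.87, 2.93 and 4.30. The region at 44.5 kb had H3K4me2 of 6.42, 2.12 and 7.16 and H3K4me3 of 2.16 after 4-OHT only. The region at 203 kb had H3K4me2 of 3.84, none and 4.36 at H3K4me1 of 15.8, 13.0 and 11.5. The weakest Sox2 region, at 297 kb, which holds the octamer window printed above, had H3K4me1 of 1.87, 1.57 and 1.11. It had no H3K4me2 peak after either treatment, and neither had the region at 221 kb. Of the 19 regions, 8 had no H3K4me2 peak after MM-401 and 2 had none after 4-OHT.

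**Figure D5:**
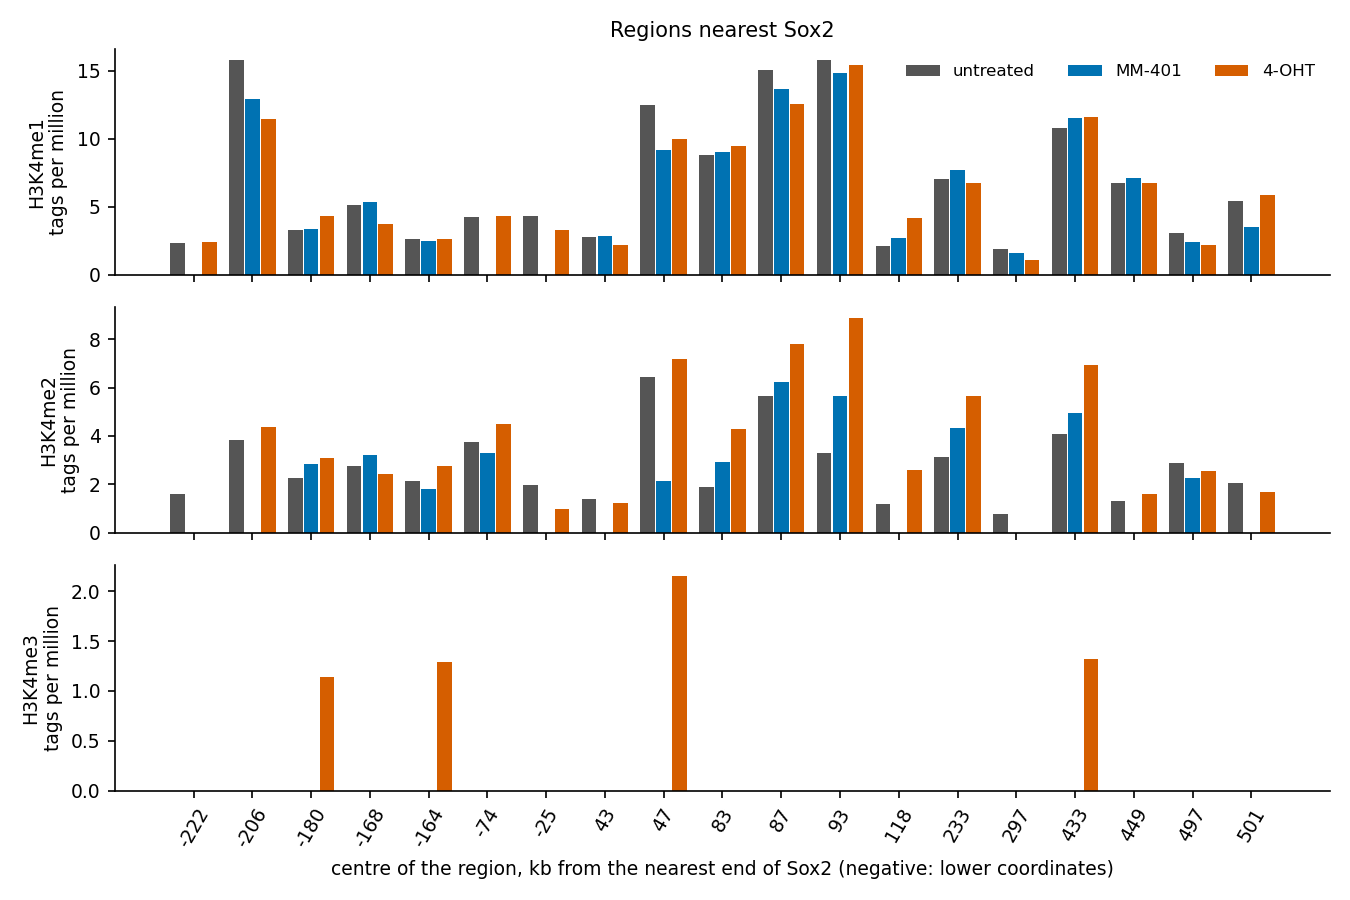
Tags per M of H3K4me1 (top), H3K4me2 (middle) and H3K4me3 (bottom) inside the 19 regions nearest to Sox2, by the distance of the region's centre from the nearest end of the gene (kb, negative at lower coordinates); bars are single libraries and a missing bar means that no peak overlapped the region. In the region that starts 90.8 kb away, H3K4me1 was 15.8, 14.9 and 15.4 and H3K4me2 was 3.30, 5.65 and 8.88, and H3K4me3 bars are seen after 4-OHT only.

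Other pluripotency genes differed from region to region. Esrrb, a nuclear receptor of the naive state, had 5 regions, 3 of them without H3K4me2 after MM-401, and the one at 64.3 kb (chr12:86449711-86457332) had H3K4me1 of 20.1, 19.6 and 18.8 and H3K4me2 of 4.44, 2.32 and 14.4 (13.4 to 15.5). The single Nanog region, at 32.5 kb, had H3K4me1 of 5.18, 4.68 and 9.26 and H3K4me2 of 3.22, none and 3.64. Its H3K4me1 peak was 2821 bp wide untreated and 15860 bp after 4-OHT, so the value of 9.26 is spread evenly over a much wider peak. The single Utf1 region had H3K4me2 of 3.67, none and 21.6, the last under a peak of 22499 bp that reached a gene end. H3K4me1 was thus kept in these, and H3K4me2 was called in each after 4-OHT.

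Of the 4 regions near Sall4, a zinc finger factor of pluripotency, the one at 21.8 kb had H3K4me2 of 6.34, 9.94 and 8.21 and H3K4me3 of 2.40 after MM-401 and 2.50 after 4-OHT. Of 3 regions near Tfcp2l1, a naive factor, 2 had no H3K4me2 after MM-401, and that at 1.03 kb had H3K4me2 of 9.29, 9.89 and 13.3 and H3K4me3 of 1.93 after 4-OHT. Foxd3 and Klf5 had 8 regions each, of which 4 and 5 had no H3K4me2 after MM-401 and 2 and 1 had none after 4-OHT. The Foxd3 region at 8.48 kb had H3K4me2 of 2.87, 2.17 and 5.97 at an H3K4me1 of 14.1, 13.9 and 13.4. The Klf5 region at 195 kb had H3K4me2 of 7.04, 8.83 and 7.97 and H3K4me3 of 1.63 after 4-OHT, and the one at 135 kb had no H3K4me2 peak after either treatment, with H3K4me1 of 5.75, 2.84 and 2.36.

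Tbx3, a T-box factor of the naive state, had 18 regions, of which 7 had no H3K4me2 after MM-401, 1 had none after 4-OHT and 6 had H3K4me3 after 4-OHT. The one at 53.0 kb had H3K4me1 of 15.8, 17.1 and 15.0, H3K4me2 of 5.64, 7.32 and 10.2, and H3K4me3 of 1.44 after 4-OHT. The one at 5.78 kb, which holds the Tbx3os2 window, had H3K4me2 of 2.04, 1.65 and 2.88 and H3K4me3 of 1.63 after 4-OHT. Nr5a2, a nuclear receptor, had 17 regions, of which 12 had no H3K4me2 peak after MM-401 and 2 had none after 4-OHT. In the one at 213 kb, the only one of the 17 with H3K4me3 after 4-OHT, H3K4me2 was 5.29, 6.16 and 8.10, with H3K4me3 of 1.14. Otx2, a formative factor, had 7 regions, of which 5 had no H3K4me2 after MM-401 and 1 had none after 4-OHT, and the one at 47.0 kb had H3K4me1 of 13.3, 14.6 and 11.7 and H3K4me2 of 2.10, none and 5.52. In the LIF pathway, the receptor gene Lifr had 9 regions, 4 without H3K4me2 after MM-401 and 2 without it after 4-OHT, and the one at 27.2 kb had H3K4me2 of 4.34, 7.37 and 5.72. Both Il6st regions had no H3K4me2 after MM-401, and the one at 34.8 kb had H3K4me2 of 2.42, none and 3.89; Il6st is the shared receptor subunit of this pathway.

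Some of the regions lay in runs. Joined over gaps up to the distance commonly used to stitch neighbouring enhancers, 14006 regions (50.9%) stood alone. The 1804 runs of 3 or more held 23.6% of all regions. Runs of other H3K4me1 peaks were not counted, so runs are not shown to be particular to the regions. The run with the most tags, in Msi2, had 7 regions with summed H3K4me1 of 89.8 untreated, 105 after MM-401 and 81.0 after 4-OHT and H3K4me2 of 32.6, 38.2 and 44.3, with every region keeping both marks. The longest had 11 regions in Igsf21, with H3K4me1 of 78.6, 56.5 and 49.5 and H3K4me2 in 6 regions after MM-401 and 8 after 4-OHT (31.2, 17.1 and 22.6). The run near Zfp281, a zinc finger regulator of pluripotency genes, had 5 regions with H3K4me1 of 70.3, 65.8 and 73.9, and H3K4me2 of 26.7, 27.3 and 46.2, with an H3K4me2 peak in 3 of the 5 after MM-401 and in 4 after 4-OHT and H3K4me3 in 2 after 4-OHT. In Galnt2 H3K4me2 had a peak in 2 of 8 regions after MM-401 and in all 8 after 4-OHT (33.5, 15.1 and 28.2).

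The run in Cdyl, which encodes a chromodomain protein, mostly had no H3K4me1 peak after 4-OHT. Its 7 regions had H3K4me1 of 69.3 untreated, 72.2 after MM-401 and 5.94 after 4-OHT, where 1 region had a peak. Regions without a peak add nothing to the sums of a run, and the part of peak calling in this absence was not tested. H3K4me2 was 30.5, 26.3 and 62.4 with a peak in all 7 after 4-OHT, and 4 of the 7 had H3K4me3, with 13.1 in sum.

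The same rule was also read from the treated lists, to set the shares beside those of regions chosen in the other direction. Of 30982 regions chosen in the 4-OHT lists (with the untreated Mll1 list), 30.0% had no H3K4me2 in untreated cells, 9.13% no H3K4me1 and 7.89% had H3K4me3. Of 20564 chosen in the MM-401 lists, 5.31% had no H3K4me2 in untreated cells, 0.798% no H3K4me1 and 39.1% had H3K4me3. In the chosen regions themselves, 12.2% had no H3K4me2 after 4-OHT and 58.0% had none after MM-401. The larger share of absent H3K4me2 thus lay with the shallower library of each pair, which also had the shallower input. The input of the untreated mark libraries held 36.6 M filtered tags and that of MM-401 12.2 M, and the 4-OHT input was the deepest. For H3K4me3 and 4-OHT, whose mark libraries but not inputs were of similar depth, 13.6% acquired a peak. Of the regions chosen in reverse, 7.89% had one in untreated cells. The part of library and input depth in these shares was not tested.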

How the data were processed

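Chromatin immunoprecipitation libraries of 3 histone marks in 3 conditions, and of Mll1 in untreated cells, were analysed, with 1 library per group. The authors aligned reads to mm10 with Bowtie2 and used SAMtools 1.5, per the submitters' processing notes, which name MACS2 for peaks, whereas the file headers name MACS 1.4.2. Peaks were called per library against an input, per the file headers. The deposited lists give a count of tags per peak, a score derived from a p-value on a log10 scale, a fold enrichment ratio over input and a false discovery rate in percent, all the authors' values.

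Here a peak was counted as present in a region when it overlapped it by at least 1 bp. Tags were spread evenly over a peak, and those inside the region were divided by the library's filtered tags. Intervals are Clopper-Pearson for shares and exact Poisson for tags, and PCR reads are not independent molecules. Filtered tags ranged from 12.9 M to 61.8 M per mark library. Python 3.11.15, numpy 2.4.6, pandas 2.3.3 and scipy 1.17.1 were used, and the scripts were tested on simulated data.

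The regions, the gene lists and the alternatives were chosen with earlier results of these data known. Regions named singly were, for each mark and treatment, the 10 with the most tags, the 10 of highest score that lost or acquired a peak and the 10 with the largest rise or fall among those with at least 100 untreated tags, the regions of listed genes, and the 10 runs with the most tags; others are said to be chosen after their values were seen. The sequence of whole regions was not analysed, and 4 input libraries were used only through the peak lists.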

Additional observations from a re-analysis of the deposited data

How the results depend on the processing

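Over 11 results and 68 alternatives, 25 values kept their direction and size, 40 moved and 3 changed sign; 11 of the alternatives were chosen after seeing the data. For MM-401, absent H3K4me1 was 38.2% with scores of at least 100, 10.1% with lists of equal length, 22.1% with at least 50 tags and 28.8% with 50% cover; absent H3K4me2 was 75.7%, 22.4%, 50.5% and 68.0%; acquired H3K4me3 was 0.114%, 5.51% and, with cover, 0.0944%. For 4-OHT, absent H3K4me1 was 6.23% by score, 2.64% by tags, 4.87% by cover and 3.72% without long peak-free stretches; absent H3K4me2 was 22.7%, 14.3% (equal lists), 6.21% and 23.7%; acquired H3K4me3 was 5.34%, 6.81% and 3.61%. The H3K4me1 log2 ratio after MM-401 changed sign to 0.03 (scaled to tags in peaks) and 0.10 (whole peaks), and was -0.04 (score) and -0.08 (cover). That of H3K4me2 changed sign to -0.07 (equal lists) and was 0.26 (score), 0.09 (tags), 0.10 (scaling), 0.15 (whole peaks) and 0.16 (cover). After 4-OHT, H3K4me1 gave -0.20 (score), -0.19 (equal lists), -0.28 (scaling), -0.16 (whole peaks) and -0.21 (without peaks at gene ends). H3K4me2 gave 0.23, 0.12, 0.01 and 0.05 in the same order, and 0.12 (tags) and 0.11 (cover). The cause was not tested where it is not the setting's own construction. No paired analysis was possible because each group has 1 library. The MM-401 libraries had 49.5% to 60.3% of the untreated tags, and depth, processing group and MM-401 cannot be told apart.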

Other observations

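The 10 genes with the most regions had 23 to 42 each. Magi1, which encodes a scaffold protein of cell junctions, was nearest to 42 regions out of 108 untreated H3K4me1 peaks, and 26 of the 42 lay in its body of 608 kb. H3K4me1 was present in 36 of the 42 after MM-401 and in 40 after 4-OHT, H3K4me2 in 19 and 40, and H3K4me3 in 0 and 5. Zfhx3, a zinc finger homeobox factor, had 39 regions out of 107 peaks, with H3K4me2 in 16 after MM-401 and 36 after 4-OHT and H3K4me3 in 0 and 7. Tle3, a Groucho-type corepressor, had 26 regions although the gene spans 46.2 kb, and only 1 of them lay in its body; H3K4me2 was present in 16 and 24. Ptprg, a receptor tyrosine phosphatase, also had 26, with H3K4me2 in 8 and 22 and H3K4me3 in 0 and 8. Agap1 had 26 regions with H3K4me2 in 9 and 22, and Ajap1 had 24 with H3K4me2 in 11 and 17. Arid1b, a subunit of the BAF remodelling complex, had 24 with H3K4me2 in 7 and 20, and Auts2 had 24 with 12 and 23. Grik3, a glutamate receptor, and Med13l, a subunit of the Mediator kinase module, had 23 each, with H3K4me2 in 14 and 22 and in 7 and 19.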
